A study of Mus musculus with 4 samples.

Results

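The comparison set the RNA polymerase II (Pol II) library of mouse embryonic stem cells carrying a hairpin against NelfE (shNelfE) beside the library of cells carrying a hairpin against Spt5 (shSpt5). These were 2 of the 4 libraries of the series and were picked by their knockdown label. Both cultures were V6.5 cells, a line of C57BL/6-129 background, held for 2 passages without feeder cells, and both received 1 µM flavopiridol for 1 h about 4 days after the hairpin. Both libraries were read on the same flow cell. The other libraries, shSpt4 from that flow cell and shControl from another one after 1 passage without feeders, were drawn on only as references outside the comparison. Flavopiridol was present in all 4 groups, so its own effect was not measured. Pol II was recovered with an antibody to the N-terminus of Rpb1, its largest subunit.

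Spt5 pairs with Spt4 to form DSIF, a factor that sits on Pol II from soon after initiation until the end of the gene. NelfE is the subunit of the NELF complex that carries an RNA recognition motif, and NELF binds Pol II together with DSIF to hold it in a pause just downstream of promoters. Cdk9, the kinase blocked by flavopiridol, phosphorylates Spt5, NELF and Pol II. NELF then leaves, while DSIF stays on the moving polymerase and favours its elongation. The pair thus sets a factor of the pause alone beside one that also travels with Pol II.

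Each side held 1 library, so no difference below has a replicate check, and each ratio compares these libraries rather than the conditions. How far Spt5 and NelfE were reduced was not measured here. The files use the mouse build mm8. No mm8 gene annotation was used here, so regions are given by position without gene names, exons or promoters, and no sequence is shown. The shNelfE library held 3272816 reads of the first read category and the shSpt5 library 3788237. Reads that repeated a position and strand made up 10.2% in shNelfE and 17.7% in shSpt5, and reducing them to 1 left 2938052 and 3116313 tags. The distance between the tags of the 2 strands was 81 bp in shNelfE and 86 bp in shSpt5, so fragment sizes were close.

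Pol II tags were higher in shNelfE than in shSpt5 at most enriched regions, and lower between them. The regions numbered 13877, of which 4 were mitochondrial, and were called on all 4 libraries pooled at equal depth. They held 15.6% of the shNelfE tags (95% exact binomial interval 15.5 to 15.6%) and 12.4% of the shSpt5 tags (12.3 to 12.4%). The same regions held 17.0% of the tags in shSpt4 and 20.5% in shControl, so shSpt5 was the lowest of the 4 and shNelfE the next. Intervals in this text cover counting error only, and copies made by PCR are not independent molecules. Without an input library here, a region marks only a local excess of tags.

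The median region held 18 tags in shNelfE and 14 in shSpt5. Scaled to total kept tags, the median ratio of shNelfE to shSpt5 was 1.30 (log2 0.37, interval over regions 0.36 to 0.39), and 10056 regions, or 72.5%, lay above 1. From the 5th to the 95th percentile, regions ran from -0.87 to 2.01 on the log2 scale with a pseudocount of 0.5 tags, a spread that includes the counting error of regions with few tags. At no less than 78.1% of regions the region's own interval included a ratio of 1, as regions without tags in shSpt5 were left out of this count. Where the pair together held 50 tags or more, at 5284 regions, the median log2 ratio was 0.30.

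The diffuse signal between regions was lower in shNelfE. Across 576 windows of 1 Mb that touched no region, shNelfE held 154 normalised tags (tags per 1000000 kept tags) per Mb and shSpt5 held 187. Their ratio was 0.823 (0.819 to 0.828), and 570 of the 576 windows were below 1. From the 10th to the 90th percentile, windows ran from 0.716 to 0.914. Relative to shControl the same windows stood at 1.27 in shNelfE and 1.55 in shSpt5, with 1.32 in shSpt4. Whether this signal is Pol II spread over the genome or unspecific DNA cannot be told apart without a background library.

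Repeated reads also differed between the libraries, at 14.4% of reads inside regions in shNelfE and 20.5% in shSpt5, and at 9.42% and 17.3% outside. With repeats kept, the median log2 ratio of regions was 0.41, so the direction did not rest on their removal.

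The choice of scale set the size of the difference, and not its direction at the typical region. Measured against the windows, the median ratio was 1.57 (log2 0.65, 0.64 to 0.67), and 84.3% of regions lay above 1. A region was called if it differed by a factor of 2 or more with an interval that left out 1. On that rule shNelfE was called higher at 1655 regions (11.9%) and lower at 181 (1.3%) by total tags. By the windows it was called higher at 2820 (20.3%) and lower at 75 (0.54%). The windows scale raises every ratio by the same factor, so it can only add higher calls and remove lower ones, and 75 of the 181 lower calls were left. Lower calls also depended on the libraries that defined the regions, with 73 of 9651 regions called on shControl alone and 108 of 11099 called on shControl and shSpt4. Relative to the median region, which takes the typical difference away, the calls were 791 higher and 511 lower. At a ratio of at least 4 by total tags, 621 of the 13877 regions were higher and 68 lower, and at a ratio of at least 8 they were 262 and 25. Most of these held few tags. Among the 5284 regions with 50 tags or more in the pair, 50 were higher and 1 lower at a ratio of at least 4. At a ratio of at least 8 they were 8 and 0.

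**Figure D1:**
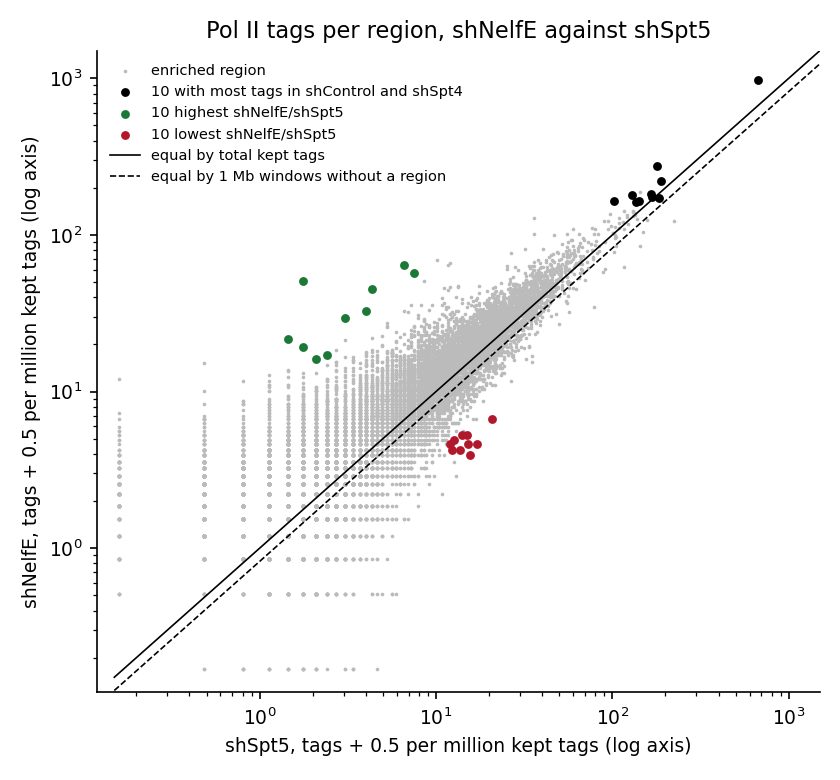
Normalised tags (plus a pseudocount of 0.5 tags) per region in shSpt5 (x axis) and shNelfE (y axis), per 1000000 kept tags on log axes, 1 grey point per region and 1 library per axis. Most of the 13877 points lie above the solid line of equal level by total tags and above the dashed line of equal level by windows without a region; coloured points are the named regions.

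All 20 chromosomes examined, the autosomes and X, showed both sides of this pattern. The median log2 ratio of regions ran from 0.25 on chromosome X (388 regions) to 0.45 on chromosome 19 (441 regions), with a standard deviation of 0.05 over 20 chromosomes. In the windows without a region the ratio ran from 0.788 to 0.875 over the same chromosomes. Regions on X had a median ratio of 1.18 (log2 0.25, 0.16 to 0.36) beside 1.30 on autosomes (log2 0.37, 0.37 to 0.39). In the windows X stood at 0.802 (0.781 to 0.823) and the autosomes at 0.824 (0.820 to 0.829), so X was below the pooled autosomes in both measures. This was not particular to X, as chromosomes 1 (0.7875) and 6 (0.8005) were lower in the windows. With the density of the windows taken off, summed tags of regions gave 1.234 on X. That was above 1.213 on chromosome 1, 1.228 on 6, 1.211 on 11 and 1.215 on 13, and below 1.271 on the pooled autosomes. The intervals of X and the autosomes did not meet for regions and overlapped for windows.

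Mitochondrial DNA, which Pol II does not transcribe, went with the diffuse signal. It gave 1080 tags in shNelfE, 2056 in shSpt5, 1323 in shSpt4 and 893 in shControl, or 368, 660, 500 and 282 normalised tags. The shNelfE library was thus at 0.557 of shSpt5 (0.517 to 0.600), lower than in the windows of the nuclear genome. All 4 mitochondrial regions had intervals below 1. Among them the lowest ratio, 0.443 (0.348 to 0.561), was at 51 to 800 and the highest, 0.593 (0.506 to 0.695), at 10851 to 12850.

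**Figure D2:**
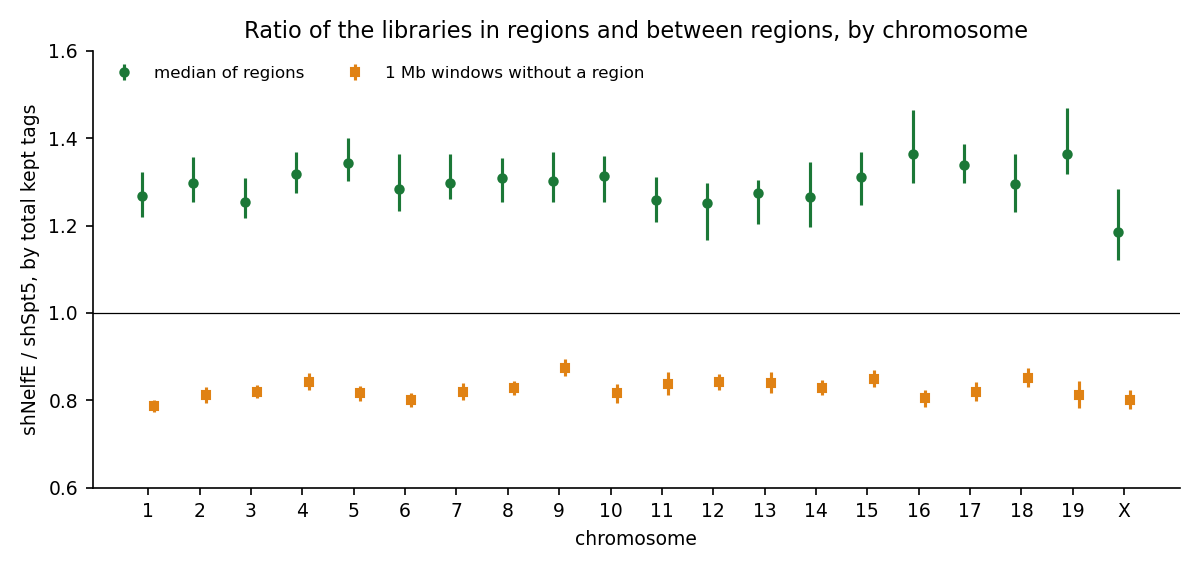
Ratio of shNelfE to shSpt5 by total kept tags on chromosomes 1 to 19 and X: green points are medians over regions with intervals from order statistics, orange squares are summed tags of 1 Mb windows without a region with exact binomial intervals. All 20 region medians lie above 1 and all 20 window ratios below 1.

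The regions where shNelfE exceeded shSpt5 most held far fewer tags in shSpt5 than in each of the other 3 libraries. These were the 10 highest ratios among the 501 higher calls that had 50 tags or more over both libraries, and their ratios, on which they were picked, are a description. A ranking on this ratio favours a low shSpt5, and shSpt5 was the lowest library at 58.5% of all regions. The median of the 10 was 30.8 normalised tags in shNelfE, 2.57 in shSpt5, 20.4 in shSpt4 and 33.3 in shControl. The values in shSpt4 and shControl had no part in the ranking, though both libraries helped to call the regions. In 5 of the 10 regions shNelfE was above shControl, and in those it was the highest library, as it was at 13.3% of all regions. The ranking favours a high shNelfE, so this count is a description too.

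First stood chromosome 13, 44913351 to 44914450, with 149 tags in shNelfE and 5 in shSpt5, beside 76 in shSpt4 and 335 in shControl. Its ratio was 31.6 (13.3 to 98.8) by total tags and 38.4 (16.1 to 120) by the windows. The tags of shNelfE sat within the centre, 145 of them within 500 bp of the summit. The nearest other region, 33.3 kb away, had 5 and 4 tags (1.33, 0.285 to 6.68), too few to show a contrast.

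Chromosome 3, 41709951 to 41711500, came next, where shNelfE had 63 tags, shSpt5 had 4, shSpt4 had 72 and shControl had 106 (ratio 16.7, 6.21 to 63.2). Here the neighbouring region 8.49 kb away, at 41702151 to 41703250, was higher in shNelfE as well, with 36 tags beside 8 (4.77, 2.18 to 11.9). Chromosome 11, 8332851 to 8334250, gave 56 tags in shNelfE, 5 in shSpt5, 19 in shSpt4 and 58 in shControl (11.9, 4.80 to 38.0). In that region shNelfE was at the level of shControl, and shSpt4 lay between them and shSpt5.

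Chromosome 17, 80717401 to 80718200, held 132 tags in shNelfE against 13 in shSpt5, with 50 in shSpt4 and 105 in shControl (10.8, 6.09 to 20.8). Chromosome 1, 183737451 to 183738850, held 86 against 9, with 52 and 83 (10.1, 5.10 to 22.9). Both were highest in shNelfE, with shControl next, shSpt4 below and shSpt5 far beneath.

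The widest of the 10, chromosome 9, 114357251 to 114359800, spanned 2550 bp and had 188 tags in shNelfE, 20 in shSpt5, 122 in shSpt4 and 140 in shControl (9.97, 6.27 to 16.7). Its flanks from 1 to 3 kb held 128 tags in shNelfE and 37 in shSpt5, a contrast in the same direction. Chromosome 2, 165408151 to 165409000, had 95, 12, 56 and 110 tags in that order of libraries (8.40, 4.59 to 16.8). Chromosome 4, 153786551 to 153787400, had 168, 23, 167 and 184 (7.75, 4.99 to 12.6), so that 3 libraries were alike and shSpt5 alone was low. The remaining 2, on chromosome 15 (78277451 to 78278200) and chromosome 4 (130053651 to 130054700), had ratios of 8.31 (3.55 to 23.8) and 7.58 (3.42 to 19.8) on 47 and 50 tags in shNelfE.

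In 8 of these 10 regions shSpt4 was below shControl, with a median ratio of 0.630 and a range from 0.272 to 1.09. The interval lay below 1 in 5 of them and above 1 in none. Over all regions the median ratio of shSpt4 to shControl was 0.811, so most regions also had shSpt4 below shControl. The count of 8 in a list of 10 thus does not by itself set the list apart. By the call rule 2 of 10 were lower in shSpt4 than in shControl, where 9.4% of all regions were. Keeping repeated reads left all 10 called higher, with ratios from 6.14 to 34.0. Of the nearest other regions, 7 of 10 had an interval that included 1, where no less than 78.1% of all regions had.

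The opposite extreme was smaller in size and in number. Of the regions with 50 tags or more, 31 were called lower in shNelfE, and the 10 lowest ran from 0.243 to 0.381, again a description of what they were picked on. Their medians were 4.43 normalised tags in shNelfE, 14.3 in shSpt5, 10.4 in shSpt4 and 7.41 in shControl. All 10 were still called lower by the windows, and all 10 with repeated reads kept.

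The lowest was chromosome 11, 86402451 to 86403750, with 11 tags in shNelfE, 48 in shSpt5, 34 in shSpt4 and 24 in shControl (0.243, 0.114 to 0.475). Its nearest neighbour, 13.4 kb away, ran the other way with 14 tags in shNelfE and 4 in shSpt5 (3.71, 1.17 to 15.5). Chromosome 6, 4696901 to 4697950, had 13, 53, 7 and 23 tags in that order of libraries (0.260, 0.130 to 0.484), so that shSpt5 stood above all 3 others. Chromosome 8, 47473751 to 47474650, had 13, 47, 14 and 35 (0.293, 0.146 to 0.551), and there shSpt4 resembled shNelfE.

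Chromosome 3 held neighbours whose summits were 2.32 kb apart. At 129208801 to 129209500 there were 12 tags in shNelfE, 38 in shSpt5, 53 in shSpt4 and 17 in shControl (0.335, 0.159 to 0.655). At 129205851 to 129207150 there were 15, 46, 53 and 25 (0.346, 0.179 to 0.631). In both, the hairpins against DSIF subunits gave the higher levels, while shNelfE and shControl were low. Levels in shSpt5 and shSpt4 were likewise above both others on chromosome 13, 23550101 to 23551150, with 19, 64, 44 and 24 tags (0.315, 0.178 to 0.532), and on chromosome 9, 66848001 to 66848850, with 15, 43, 35 and 20 (0.370, 0.191 to 0.679).

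Over the 10 lowest regions, shSpt4 relative to shControl had a median ratio of 1.45 and ranged from 0.365 to 3.73. By the call rule 4 of the 10 were higher in shSpt4 than in shControl and 2 lower, where 1.21% and 9.4% of all regions were. The list is short and mixed, so its median stands for no common behaviour. Chromosomes 7 (29614751 to 29615350), 9 (19372251 to 19373000) and 11 (94892501 to 94893300) gave the other 3 of the list, which had 12 to 14 tags in shNelfE and 37 to 42 in shSpt5.

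**Figure D3:**
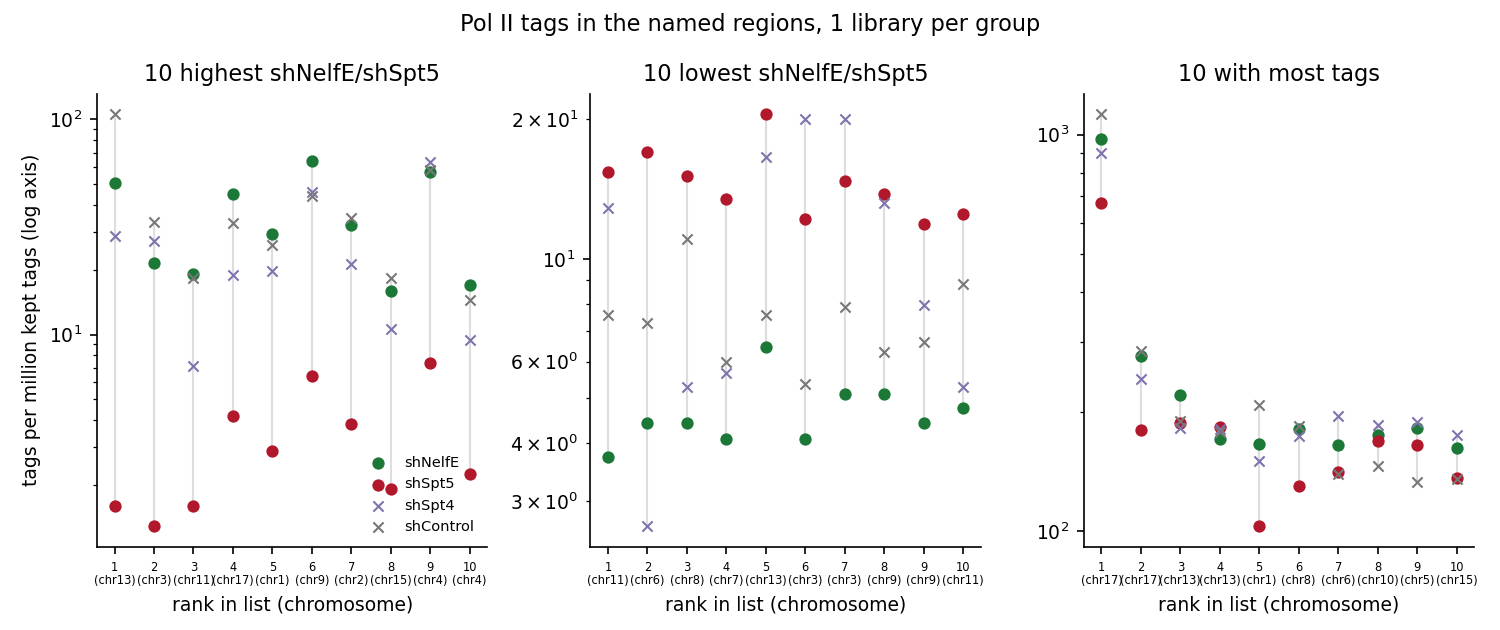
Normalised tags per 1000000 kept tags (log axis, each panel with its own range) in the 30 named regions, by rank and chromosome; filled points are shNelfE and shSpt5, crosses shSpt4 and shControl, 1 library each. In the left panel shSpt5 is the lowest point in all 10 regions, in the middle panel shNelfE is the lowest in 9, and in the right panel the 4 libraries lie close together in most. The left and middle lists were picked on the ratio of the pair, and over all regions shSpt5 was the lowest at 58.5% and shNelfE at 19.04%.

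The 10 regions with most tags in shControl and shSpt4 together were picked without the ratio of the pair. Their ratios of shNelfE to shSpt5 ran from 0.936 to 1.61 with a median of 1.18, where the median over all regions was 1.30. By total tags 0 of 10 were called, where 11.9% of all regions were higher and 1.3% lower, and by the windows also 0 of 10, where 20.3% and 0.54% were. A list of 10 is too short to tell these shares apart. The densest, chromosome 17, 39451101 to 39454750, held 2866 tags in shNelfE, 2090 in shSpt5, 2383 in shSpt4 and 3572 in shControl (1.45, 1.37 to 1.54). Its neighbour at 39456001 to 39456950 held 811, 559, 640 and 901 (1.54, 1.38 to 1.72). With 1 tag kept per position and strand, regions this dense have a ceiling, which the intervals leave out. With repeated reads kept, the ratios of the 10 ran from 0.968 to 1.90.

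Chromosome 1, 88357101 to 88360200, had the largest ratio of the 10, with 487 tags in shNelfE, 320 in shSpt5, 397 in shSpt4 and 659 in shControl (1.61, 1.40 to 1.87). Chromosome 13, 23562201 to 23563750, had the smallest, with 503, 570, 478 and 562 (0.936, 0.829 to 1.06). On the same chromosome, 23745951 to 23747600 had 648, 585, 481 and 602 (1.17, 1.05 to 1.32). By the windows the region at 0.936 was at 1.14 (1.01 to 1.28), so the only ratio below 1 in the list turned with the scale.

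On chromosome 10 (39946801 to 39948550) and chromosome 5 (115750101 to 115751900) the ratios were 1.03 (0.914 to 1.17) and 1.10 (0.976 to 1.25), intervals that include 1. Those on chromosomes 8 (87551501 to 87553250), 6 (124706101 to 124707400) and 15 (82976551 to 82978150) stood at 1.39 (1.22 to 1.59), 1.17 (1.02 to 1.33) and 1.19 (1.04 to 1.36).

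Grouped by their tags in shControl and shSpt4, libraries outside the comparison, regions differed slightly in the size of the contrast. Cut into 4 classes by rising occupancy, nuclear regions had median ratios of 1.36, 1.36, 1.28 and 1.25. The share called higher was 7.08%, 14.9%, 17.4% and 8.28%, where 11.9% of all regions were. In the top 100 regions the median ratio was 1.22 (log2 0.29, 0.22 to 0.38), with 4 called higher and 0 lower. Few tags limit the first class, whose median was 5 in shNelfE and 4 in shSpt5. With the density of the windows taken off, summed tags gave ratios of 1.35, 1.35, 1.29 and 1.25 in the same classes.

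By width the median ratio was higher in the narrowest class than in the next classes. Regions under 500 bp had a median ratio of 1.36, those from 500 bp to under 1000 bp 1.28, and those from 1000 bp to under 3000 bp 1.26. The 10 nuclear regions of 3000 bp or more had 1.35, with a log2 interval from -0.13 to 0.87. The median was 1.29 at the 7634 regions with no other summit within 20 kb and 1.30 at the 3631 with another within 10 kb, and 10.4% and 13.9% of them were called higher.

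The median ratio of shNelfE to shSpt5 was higher in classes of regions with a lower ratio of shSpt4 to shControl, and above 1 in all 4 classes. These comparisons share no library, though shSpt4 shares the flow cell with the pair and shControl does not. In 4 classes from the lowest to the highest ratio of shSpt4 to shControl, the median ratio of shNelfE to shSpt5 was 1.53 (log2 0.62, 0.58 to 0.64), 1.32 (0.40, 0.39 to 0.43), 1.23 (0.30, 0.28 to 0.32) and 1.14 (0.19, 0.15 to 0.24). In the 2 upper classes of occupancy, drawn as the second line in the plot of flanks and classes, it was 1.57, 1.32, 1.20 and 1.10. There the share called higher was 27.8%, 13.2%, 7.45% and 8.69% from the lowest class to the highest, so it did not fall at the last step. Of all regions 11.9% were called higher, and of the 2 upper classes of occupancy 17.4% and 8.28%.

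Across the 3466 nuclear regions of the class with most tags, the log2 ratios of these 2 comparisons had a Pearson correlation of -0.32 and a Spearman correlation of -0.32. Over all 13873 nuclear regions the values were -0.15 and -0.17. These are descriptions: counting error weakens them at sparse regions, and regions of 1 library share its depth and enrichment. Of the 1655 regions higher in shNelfE than in shSpt5, 315 (19.03%) were called lower in shSpt4 than in shControl, where 9.4% of all regions were. These 315 made up 24.2% of the regions called lower in shSpt4, where 11.9% of all regions were called higher in shNelfE. Of the 181 called lower in shNelfE, 8 (4.42%) were lower in shSpt4 and 9 (4.97%) higher, where 9.4% and 1.21% of all regions were. The share of tags in regions, 17.0% in shSpt4 against 20.5% in shControl and 12.4% in shSpt5 against 15.6% in shNelfE, runs along with this relation, and its part in it was not tested.

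By total tags, the contrast between shNelfE and shSpt5 was largest at the summit and shrank with distance. Within 150 bp of the summit of nuclear regions, shNelfE had 20.9 normalised tags per kb and shSpt5 had 16.0, a ratio of 1.31 (1.30 to 1.31). It was 1.20 (1.19 to 1.21) from 0.15 to 0.5 kb, 1.18 (1.17 to 1.19) from 0.5 to 1 kb, 1.10 (1.09 to 1.11) from 1 to 2 kb and 1.09 (1.08 to 1.09) from 2 to 5 kb. Dividing the ratio within 150 bp by that from 1 to 2 kb gave a quotient of 1.19 (1.17 to 1.20), whatever the scale. With the density of the windows taken off it was 1.14 (1.13 to 1.15). The ratios of the bands, so corrected, were 1.312, 1.212, 1.216, 1.155 and 1.162 from the summit outward. The summit thus still had the largest ratio, but the fall beyond it was not steady.

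At 2055 lone regions, those without another summit in 100 kb, the ratio by total tags crossed 1 on the way out. It was 1.23 (1.21 to 1.26) within 150 bp, 1.10 (1.07 to 1.14) from 0.5 to 1 kb and 0.991 (0.962 to 1.02) from 1 to 2 kb. From 2 to 5 kb it was 0.946 (0.926 to 0.967), and from 20 to 50 kb 0.964 (0.957 to 0.971). By the windows those last values were 1.15 (1.12 to 1.17) and 1.17 (1.16 to 1.18). Their surroundings were thus lower in shNelfE by total tags, yet less so than the windows without any region. With the density of the windows taken off, the ratio at lone regions was 1.24 within 150 bp. It was then 1.035 from 2 to 5 kb and 1.10 from 20 to 50 kb, so it did not cross 1 and rose again outward.

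Region by region, the focal ratio, the density within 500 bp of the summit over that 1 to 3 kb away, gave the same picture. It replaces the usual travelling ratio, which needs gene models. Its median was 8.56 in shNelfE and 6.66 in shSpt5, beside 8.79 in shSpt4 and 10.8 in shControl. The median log2 difference of shNelfE minus shSpt5 was 0.35 (0.33 to 0.37), and 8869 of 13873 nuclear regions, or 63.9%, were above 0. Where no other summit lay within 20 kb it was 0.37 (0.35 to 0.41), and where another lay within 10 kb it was 0.26 (0.23 to 0.30). Background lowers a focal ratio by itself, and shSpt5 had the more of it. With the window density subtracted the difference was 0.33 (0.30 to 0.35), over the 12752 regions whose centre and flank stayed above 0 in both libraries. From 20 to 50 kb around lone regions, density was 2.38 times that of the windows in shNelfE and 2.03 times in shSpt5. The windows may thus understate local background, and its part in the difference was not tested.

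**Figure D4:**
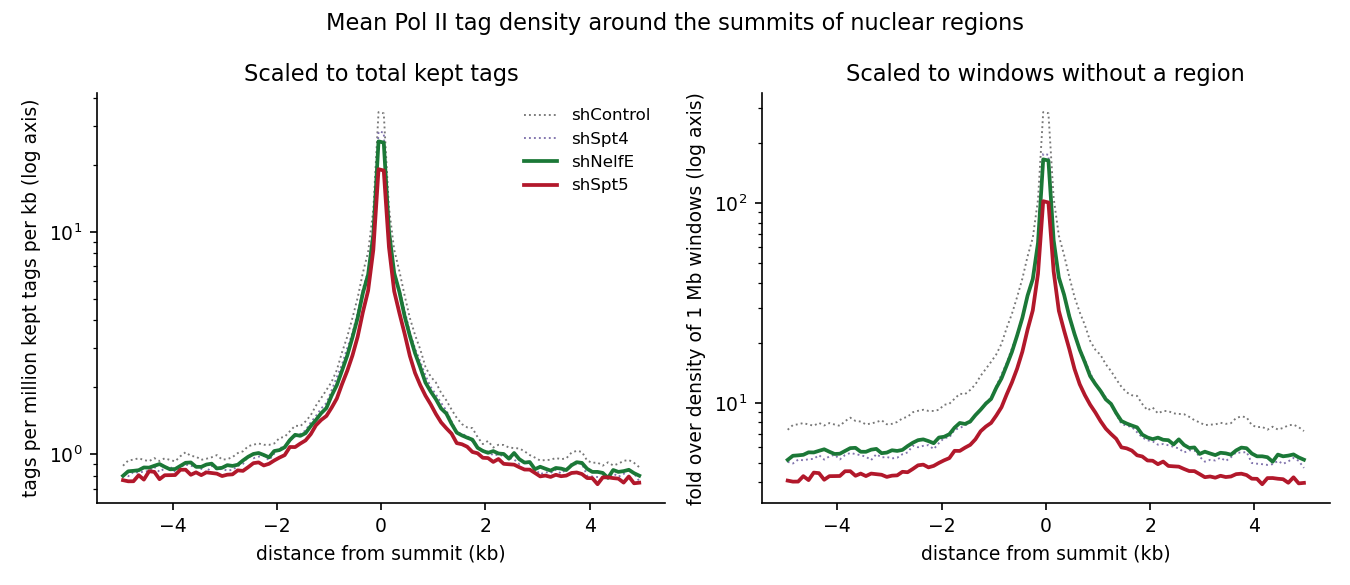
Mean tag density from 5 kb left to 5 kb right of the summits of 13873 nuclear regions in bins of 0.1 kb (log axes), left as normalised tags per kb and right as fold over the density of 1 Mb windows without a region. The solid shNelfE line lies above the solid shSpt5 line at the summit in both panels, and the lines draw closer toward the edges in the left panel; dotted lines are shSpt4 and shControl.

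The flanks of a region did not share the contrast equally. At each region the heavier flank was the side with more normalised tags from 0.5 to 3 kb in shControl and shSpt4 together, so that neither compared library set the side. Over 13741 nuclear regions with a heavier side, the ratio of shNelfE to shSpt5 was 1.17 (1.16 to 1.18) on the heavier flank and 1.05 (1.04 to 1.06) on the lighter one. The heavier side took 67.7% of the flanking tags in shNelfE (67.6 to 67.9%) and 65.2% in shSpt5 (65.1 to 65.4%). With the window density taken off, the ratios were 1.21 and 1.11.

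At 4929 nuclear regions with uneven flanks, where the heavier side had at least 2 times the normalised tags of the lighter one and the flanks held at least 20 tags, this was plainer. There the heavier flank stood at 1.27 (1.25 to 1.29) from 0.5 to 1 kb and at 1.18 (1.16 to 1.19) from 1 to 3 kb. The lighter flank stood at 1.03 (1.01 to 1.06) and 0.992 (0.974 to 1.01). The heavier side took 77.6% of flanking tags in shNelfE and 74.3% in shSpt5. Among the 2293 of them with no other summit within 20 kb, the ratios from 0.5 to 3 kb were 1.17 (1.15 to 1.18) on the heavier and 0.948 (0.926 to 0.971) on the lighter side. With the window density taken off, these were 1.20 and 0.987, and over all 4929 regions 1.24 and 1.05. Which side is the transcribed one was not determined without gene models.

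**Figure D5:**
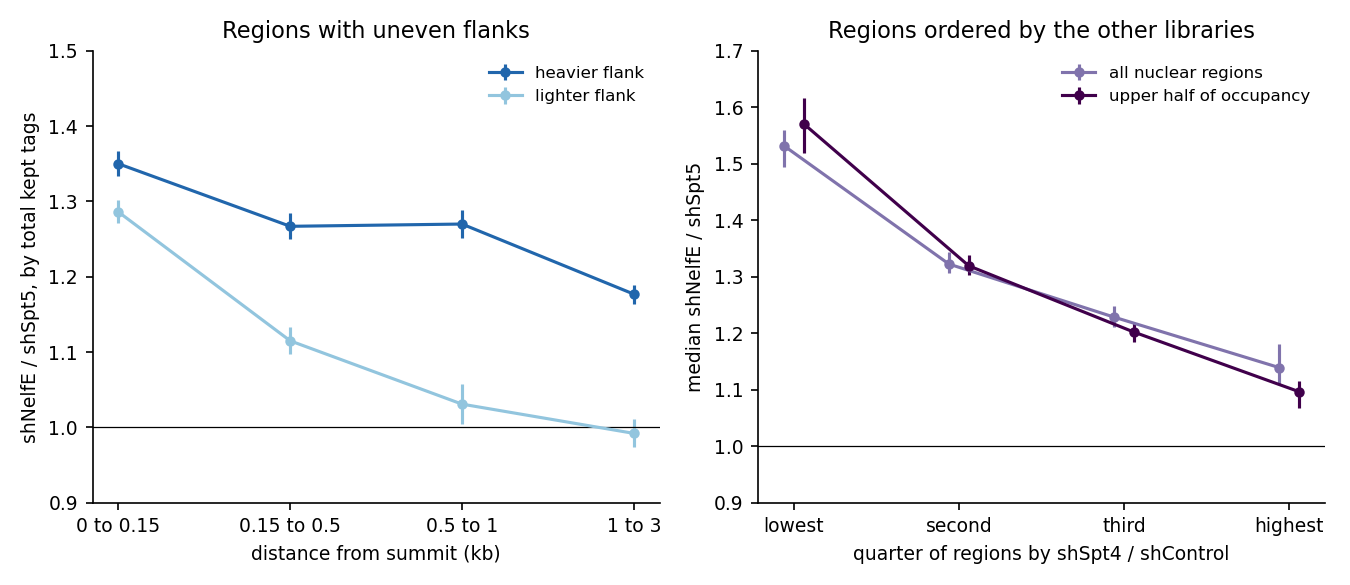
Left, ratio of shNelfE to shSpt5 by total kept tags on the heavier and lighter flank of 4929 regions with uneven flanks, by distance from the summit in kb, with exact binomial intervals. Right, median ratio of shNelfE to shSpt5 in 4 classes of nuclear regions ordered by shSpt4 over shControl, with intervals from order statistics; it declines from 1.53 to 1.14 over all nuclear regions.

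The ratios of shNelfE to shSpt5 were in part correlated between regions close together. Among adjacent regions that each held at least 50 tags in the pair, the Pearson correlation of their log2 ratios was 0.44 and the Spearman correlation 0.30 over 172 pairs within 5 kb. Both were 0.20 over 644 pairs from 5 to 20 kb apart, and 0.06 and 0.06 over 988 pairs from 20 to 100 kb apart. These correlations are descriptions, since all pairs come from the same libraries and some regions belong to 2 pairs. The correlation was thus highest within 5 kb and close to 0 beyond 20 kb.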

How the data were processed

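The deposited files held 1 signed position per aligned read, an other kind of value than a count table, with no normalization, per the file headers. The authors aligned with Bowtie (-e 70 -k 2 -m 2 -n 2 -l 36 --best) to mm8, per the headers; the aligner's version and any removal of duplicates are not given in the sources used here. From the first read category, 1 tag per signed position was kept and moved by 40 bp, from a strand offset of 80 bp. Regions were 250 bp windows on a 50 bp grid with a Poisson p of at most 1e-9 against the larger of genome-wide density and density within 5000 bp (nearest 1000 bp left out), merged within 500 bp, on the 4 libraries thinned to equal depth and pooled. Ratios have exact 95% binomial intervals, medians order-statistic intervals over regions, and the quotient of ratios a Poisson interval on the log scale. No p-value was computed. Scripts (Python 3.11.15, NumPy 2.4.6, SciPy 1.17.1) were tested on simulated data.

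Named regions were the 10 with most tags in shControl and shSpt4 and the 10 highest and 10 lowest ratios among called regions where both libraries together held 50 tags or more. The comparison, regions and rules were chosen with earlier results of these data known, and the set with uneven flanks after the files were seen. Alternatives varied the tags kept, the regions, the scale, the filter on few tags, the fold and the width of centre and flank.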

Additional observations from a re-analysis of the deposited data

Results flagged for a closer look

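The second read category, which no comparison here used, made up a larger share of reads in all 3 libraries of the shared flow cell than in shControl. It was 6.947% of reads in shNelfE (95% exact binomial interval 6.92 to 6.97%) and 6.962% in shSpt5 (6.94 to 6.99%), beside 6.959% in shSpt4 and against 6.72% in shControl (6.70 to 6.75%). The shNelfE and shSpt5 shares had overlapping intervals. What separates the categories is not stated in the headers.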

How the results depend on the processing

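The summary values recomputed under 18 alternative settings (each under those that apply) kept their direction, although by the windows the region at 0.936 and the surroundings of lone regions moved above 1, and 32 of 74 alternative values stayed within the interval, or within 1.5 times the count, of the reported one. For the median log2 ratio, all reads gave 0.41, tags outside regions as the scale 0.43, the windows 0.65, thinning to equal depth 0.36, subtracted background 0.39 and a minimum of 50 tags 0.30; scaling to the median makes it 0 by construction. Higher and lower calls were 2820 and 75 by the windows, 791 and 511 by the median region, 501 and 31 with 50 tags or more (fewer regions counted), and 968 and 103 at a ratio of 3. Lower calls alone moved to 274 at a ratio of 1.5, to 73 on regions from shControl alone and to 108 on regions from shControl and shSpt4. Shares of tags in regions, shNelfE then shSpt5, were 16.3% and 12.8% with all reads, 14.7% and 11.7% at a Poisson p of 1e-12, 13.0% and 10.2% on regions from shControl, 14.0% and 11.1% on those from shControl and shSpt4, 15.4% and 12.2% with unmoved tags, and 15.2% and 12.1% on autosomes. The focal log2 difference was 0.38 with all reads, 0.39 on regions from shControl and 0.37 with no other summit within 20 kb. The quotient of central over flanking ratio was 1.21 with all reads, 1.21 on regions from shControl, 1.20 on those from shControl and shSpt4, 1.14 with background subtracted and 1.25 with no other summit within 20 kb. The heavier flank stood at 1.12 and the lighter at 1.01 with no other summit within 20 kb, at 1.21 and 1.00 with uneven flanks (a set added after seeing the data), and the heavier at 1.18 when chosen on shControl alone. The cause of these shifts was not tested. Medians of 18 and 14 tags per region limit the calls at weak regions. No paired analysis was possible because each group has 1 library.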
